A study of Mus musculus with 20 samples.

Results

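The 9 genes described here code for collagen chains that lie in or near basement membranes, or on the surface of fibrils, and do not themselves form the thick fibrils of scar. They were chosen by name, as the rows of the deposited expression table for Col4a1, Col4a2, Col6a1, Col6a2, Col6a3, Col14a1, Col15a1, Col16a1 and Col18a1. They are 9 of the 49315 genes in the table. The 20 livers came from obese mice with diet-induced steatohepatitis, all kept on the AMLN diet of the Gubra model. Of these, 10 mice were given S217879 orally each day at 30 mg/kg over 8 weeks, and 10 received the vehicle, HEC 1%, over the same time. S217879 is known as an activator of the transcription factor NRF2. Labels state no strain, sex or age, and no lean or chow-fed liver was analysed here, so every value is from a diseased liver. Each library carries its own animal number, and none pairs a treated with an untreated mouse.

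Basement membranes are thin sheets under epithelia and around vessels, built on a network of type IV collagen that is joined to laminins, nidogens and perlecan. The liver sinusoid is unusual because its endothelium has no continuous basement membrane in health, and a more continuous sheet is laid down there during fibrosis. Type VI collagen forms beaded microfilaments beside basement membranes, types XV and XVIII carry sugar chains and anchor the sheet to the tissue around it, and types XIV and XVI bind to the surface of other fibrils.

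Values are transcripts per 1000000 (TPM), a scale that divides by gene length, so levels can be set side by side between genes. TPM keeps no record of sequencing depth, so the counting error behind each value is unknown. Between 24659 and 27744 genes were above 0 in each library. In the vehicle group, replicates 6 and 7 stood apart, because 4 rRNA-type genes took 58.2% and 50.7% of all TPM there. Those genes took 24.0% ± 6.78 of TPM in S217879 livers and 30.0% ± 13.6 in vehicle livers (SD, n = 10 each). Without these 2 vehicle livers all 9 members were lower, but so were 54.4% of all tested genes, and the median log2 difference of all genes was -0.23, so the members' larger differences there are not particular to them.

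The share of liver RNA from nearly every chain was lower in S217879 livers. With limma on log2(TPM + 0.5) and Benjamini-Hochberg adjustment over the 13401 genes whose mean reached 1 TPM, 8 of the 9 members were lower at an adjusted p under 0.05 and 0 were higher. Over all tested genes, 23.5% were lower and 6.07% were higher, 29.6% in all. After median-of-ratios scaling, a common scale factor for each library, 27.1% were lower and 26.6% were higher, so the imbalance between lower and higher genes depends on the scaling, while 8 of 9 members were lower and 0 higher under both. All 9 members passed the filter on low values. They were chosen by name, but with earlier results of these data known. How far that choice shaped the count of lower members was not tested. The median log2 difference of the members was -0.55, against -0.12 over all tested genes. The sum of the 9 members was 354 ± 42.5 TPM in S217879 livers and 483 ± 81.5 TPM in vehicle livers (SD, n = 10 each). In whole liver, fewer cells of a type and less RNA per cell cannot be told apart.

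**Figure D1:**
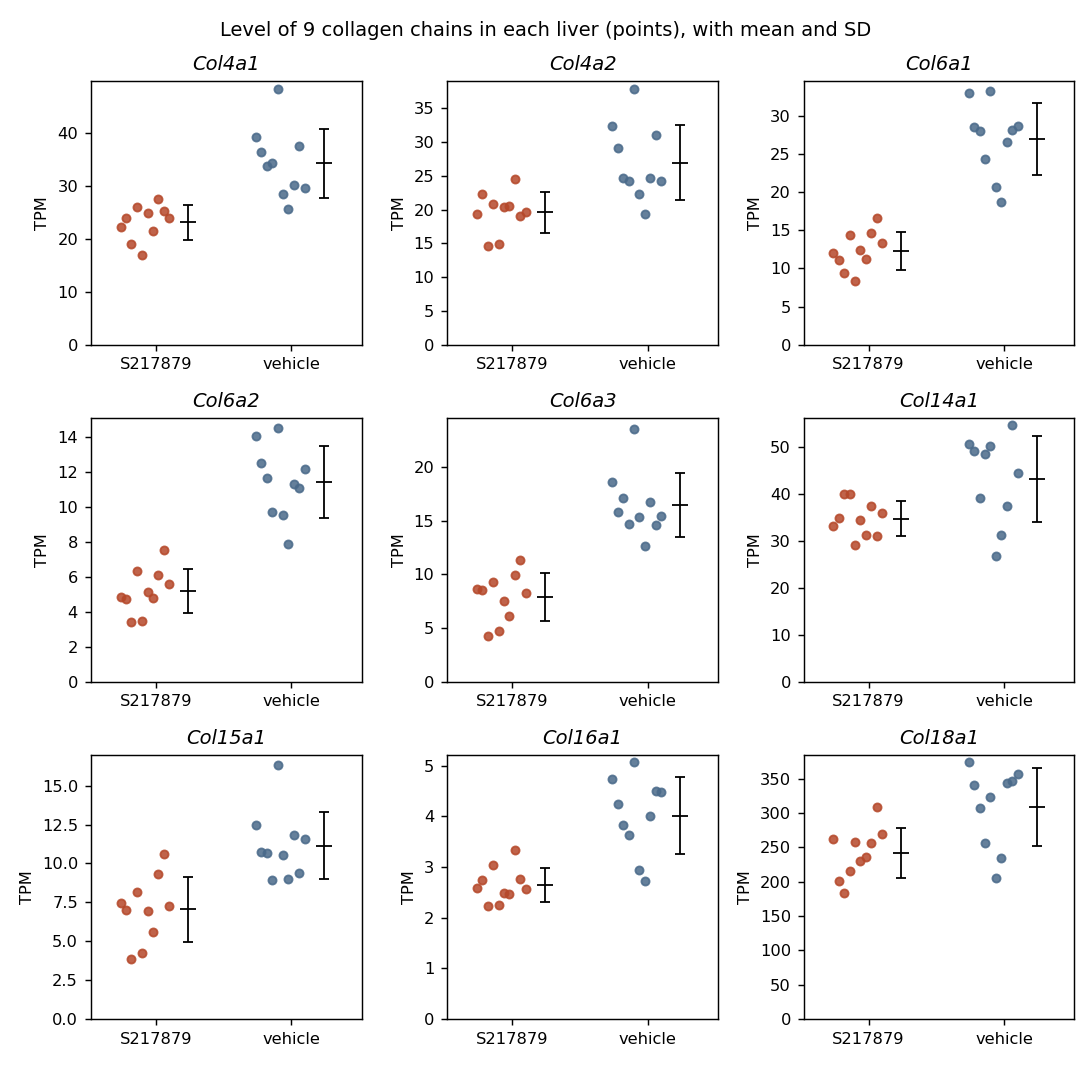
TPM of each of the 9 chains in each liver, 10 S217879 livers left of 10 vehicle livers, with 1 point per liver and the group mean and SD. The groups do not overlap for Col6a1, Col6a2 and Col6a3, and they overlap for the other chains.

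The level differed widely between chains. In both groups Col18a1 was the most abundant, at 242 TPM in S217879 livers and 309 TPM in vehicle livers, and Col16a1 was the least abundant, at 2.64 TPM in S217879 livers and 4.01 TPM in vehicle livers. Between them, in S217879 livers, the order was Col14a1, Col4a1, Col4a2, Col6a1, Col6a3, Col15a1 and Col6a2. Among S217879 livers the ranges of Col18a1, Col14a1 and Col4a1 did not overlap, nor did those of Col6a2 and Col16a1, while each other pair of neighbours overlapped. In vehicle livers Col18a1 and Col16a1 stood clear of the rest, and all neighbours between them overlapped.

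The type IV chains, which assemble with each other into the network of the sheet, were both lower. Col4a1 ranged over 16.9, 23.9 and 27.4 TPM (lowest, median, highest) in S217879 livers and over 25.5, 34.0 and 48.1 TPM in vehicle livers. The groups overlapped slightly, with 8 of 10 S217879 livers below the lowest vehicle liver. Its log2 difference was -0.55 (SE 0.12, limma adjusted p = 0.000260). Col4a2 ranged over 14.6, 20.1 and 24.5 TPM in S217879 livers and over 19.4, 24.6 and 37.9 TPM in vehicle livers. Here the overlap was wider, with 4 S217879 livers below the lowest vehicle liver. Its log2 difference was -0.44 (SE 0.12, limma adjusted p = 0.00372). Both chains passed the threshold in 34 of 34 alternative settings, as did Col6a1, Col6a2, Col6a3 and Col15a1.

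The genes of this pair lie head to head on chromosome 8 with their starts side by side, which is why their promoter windows are shown. In GRCm38 with GENCODE M21, Col4a1 spans chr8:11198423-11312826 on the minus strand and Col4a2 spans chr8:11312805-11449287 on the plus strand, so the gene models overlap by 22 bases. The RefSeq windows (GRCm38.p6, 250 bases before to 50 after the start) are chr8:11312777-11313076 for Col4a1, minus strand, and chr8:11312555-11312854 for Col4a2, plus strand, and they share 78 bases. Capitals mark matches on either strand to TGANNNNGC, the GC box GGGCGG, the CCAAT box CCAAT and the AP-1 site TGACTCA. The pattern TGANNNNGC, called the antioxidant core here, is a loose form of the antioxidant response element that NRF2 binds. A match to it need not be such an element. Matches may overlap each other.
Col4a1: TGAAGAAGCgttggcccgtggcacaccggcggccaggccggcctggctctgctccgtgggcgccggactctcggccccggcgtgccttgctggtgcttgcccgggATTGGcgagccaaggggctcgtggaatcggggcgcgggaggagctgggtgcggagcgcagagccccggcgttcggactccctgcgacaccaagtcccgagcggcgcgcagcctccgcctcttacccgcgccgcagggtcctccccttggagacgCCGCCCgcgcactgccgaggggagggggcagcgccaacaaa
Col4a2: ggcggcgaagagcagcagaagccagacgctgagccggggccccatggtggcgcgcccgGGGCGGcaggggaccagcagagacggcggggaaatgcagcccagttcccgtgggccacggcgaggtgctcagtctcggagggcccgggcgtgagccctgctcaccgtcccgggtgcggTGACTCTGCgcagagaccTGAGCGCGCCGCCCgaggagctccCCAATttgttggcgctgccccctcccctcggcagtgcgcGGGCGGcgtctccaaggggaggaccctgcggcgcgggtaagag
The Col4a1 window held 1 antioxidant core match, 1 GC box and 1 CCAAT box, and the Col4a2 window held 2, 3 and 1 of these. Of 32851 mouse promoter windows of this length, 41.3% held the antioxidant core, 35.7% a GC box, 37.4% a CCAAT box and 5.2% an AP-1 site. Windows were matched for 8 of the 9 members, all but Col14a1. These matches describe letters and are not shown to be bound.

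From animal to animal the type IV chains moved together, and with some other genes as closely. With each group centred on its own mean, the fibrillar chain gene Col3a1 was most like Col4a2 (r = 0.92 over 20 livers). Col4a1 came next (r = 0.91), and both values are given as a description. After median-of-ratios scaling, log2 Col4a1 and Col4a2 correlated at r = 0.91 in S217879 livers (n = 10, permutation test, adjusted p = 6e-05 over 6 relations) with Spearman's rho = 0.95 (permutation test, adjusted p = 0.0003). In vehicle livers r was 0.94 (n = 10, permutation test, adjusted p = 0.000375) and rho was 0.77 (permutation test, adjusted p = 0.0188). Leaving out the 2 livers farthest from the median gave r = 0.90 in S217879 livers and 0.79 in vehicle livers. The Col4a1/Col4a2 ratio was 1.18 ± 0.09 in S217879 livers and 1.27 ± 0.07 in vehicle livers (SD, n = 10 each). The log2 ratio differed by -0.11 (95% interval -0.20 to -0.02, two-sided permutation test, adjusted p = 0.0459 over 5 ratios), in this direction in 8 of 10 S217879 livers. That call was lost without S217879 replicate 1, 2, 5, 7, 8 or 10 or vehicle replicate 2, 3, 4, 5, 6 or 7, at an adjusted p by permutation of 0.0506 to 0.0885, and without vehicle replicates 6 and 7 together, at 0.107.

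The type VI chains had the lowest log2 differences of the 9 members. Col6a1, Col6a2 and Col6a3 build the microfilament together, and a fragment of the Col6a3 chain circulates as endotrophin. Col6a1 ranged over 8.32, 12.2 and 16.6 TPM (lowest, median, highest) in S217879 livers and over 18.7, 28.1 and 33.4 TPM in vehicle livers. Col6a2 ranged over 3.43, 4.99 and 7.55 TPM in S217879 livers and over 7.86, 11.5 and 14.5 TPM in vehicle livers. Col6a3 ranged over 4.30, 8.397 and 11.3 TPM in S217879 livers and over 12.6, 15.6 and 23.6 TPM in vehicle livers. For each of the 3 chains the lowest vehicle liver was above the highest S217879 liver. Such separation downwards held for 1.89% of all tested genes.

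In limma's fit the log2 differences were -1.10 for Col6a1 (SE 0.12, adjusted p = 2.09e-09), -1.08 for Col6a2 (SE 0.12, adjusted p = 4.16e-09) and -1.05 for Col6a3 (SE 0.14, adjusted p = 1.50e-07). Of all tested genes, 1.53% were called and at least 2-fold lower. No shift in the proportions of the 3 chains was detected. The Col6a1/Col6a2 ratio was 2.40 ± 0.15 in S217879 livers and 2.37 ± 0.11 in vehicle livers (SD, n = 10 each), and the log2 difference, on TPM + 0.5, was -0.03 (95% interval -0.09 to 0.04, permutation test, adjusted p = 0.504). The means are of plain TPM ratios, and the sign of the log2 difference turns with the pseudocount, to 0.018 with none, so no direction is given. The Col6a3/Col6a1 ratio was 0.63 ± 0.09 in S217879 livers and 0.61 ± 0.07 in vehicle livers (SD, n = 10 each), and the log2 difference was 0.05 (95% interval -0.13 to 0.22, permutation test, adjusted p = 0.56). These intervals bound any shift in proportion and do not show that there is no shift.

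Col6a1 lies at chr10:76708792-76726168 and Col6a2 at chr10:76595762-76623630, both on the minus strand, while Col6a3 lies at chr1:90765923-90843971, also on the minus strand. Col6a1 and Col6a2 correlated at r = 0.96 in S217879 livers (n = 10, permutation test, adjusted p = 6e-05, rho = 0.99) and 0.97 in vehicle livers (n = 10, permutation test, adjusted p = 6e-05, rho = 0.94). Without the 2 farthest livers r was 0.95 in S217879 livers and 0.89 in vehicle livers. Col6a1 and Col6a3 correlated at r = 0.88 in S217879 livers (n = 10, permutation test, adjusted p = 0.00152, rho = 0.73). In vehicle livers their r was 0.81 (n = 10, permutation test, adjusted p = 0.00874) but rho was 0.43 (permutation p = 0.219), and r was 0.01 without the 2 farthest livers, so that relation rests on them.

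The multiplexins Col15a1 and Col18a1 release the fragments restin and endostatin from their ends. Col15a1 ranged over 3.84, 7.12 and 10.6 TPM (lowest, median, highest) in S217879 livers and over 8.95, 10.7 and 16.3 TPM in vehicle livers, with 8 S217879 livers below the lowest vehicle liver. Its log2 difference was -0.66 (SE 0.14, limma adjusted p = 0.000409). The gene lies at chr4:47208161-47313167 on the plus strand in GENCODE M21, a little after the RefSeq start used for its window. Col18a1 ranged over 183, 246 and 309 TPM in S217879 livers and over 205, 332 and 375 TPM in vehicle livers, and only 2 S217879 livers lay below the lowest vehicle liver. Its log2 difference was -0.34 (SE 0.13, limma adjusted p = 0.0402).

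The Col18a1 call sat near the threshold. It was lost in 15 of 34 alternative settings, over which the limma or rank-sum adjusted p ran from 4.88e-06 to 0.0862. Leaving out S217879 replicate 2, 3, 4, 6 or 7, or vehicle replicate 1, 2, 3, 5, 8, 9 or 10, gave a limma adjusted p of 0.0579 to 0.0862. It was also lost with no filter (limma adjusted p = 0.0557), after rescaling without mitochondrial genes (limma adjusted p = 0.0727) and by an exact rank-sum test (adjusted p = 0.0566). The gene lies at chr10:77052178-77166548 on the minus strand and has 2 RefSeq starts, 52825 bases apart, and the deposited value pools their transcripts. Of its exon bases, 2350 lie within the span of Slc19a1, introns included, on the other strand. Slc19a1 was at a mean of 5.59 TPM, and how the counting treated strand is not stated. How many of these bases, among 7021 exon bases of Col18a1, are also exon bases of Slc19a1 was not determined. If strand was ignored, reads from any such bases cannot be told apart. Antisense genes also span exon bases of Col4a1 (Gm15418), Col4a2 (Gm15419), Col14a1 (1700040F17Rik) and Col15a1 (Gm12426). They averaged 0.39, 0.47, 0.013 and 0.19 TPM in that order, far below those chains. The Col18a1/Col15a1 ratio was 36.8 ± 10.9 in S217879 livers and 28.2 ± 5.30 in vehicle livers (SD, n = 10 each), a log2 difference of 0.32 (95% interval 0.01 to 0.62) that missed the threshold over 5 ratios (permutation test, adjusted p = 0.0676).

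Col15a1 followed Col6a3 more closely than any other of 13400 genes when each group was centred on its own mean (r = 0.97 over 20 livers, given as a description). Within S217879 livers log2 Col6a3 and Col15a1 correlated at r = 0.99 (n = 10, permutation test, adjusted p = 0.00048 over 72 relations, rho = 0.99), and at r = 0.95 in vehicle livers (n = 10, permutation test, adjusted p = 0.003). In vehicle livers rho was 0.75 and did not pass (permutation test, adjusted p = 0.148). Without the 2 farthest livers r was 0.95 in S217879 livers and 0.76 in vehicle livers. This pair was picked after its values were seen. The ratio of the chains differed between the groups. Col6a3/Col15a1 was 1.12 ± 0.05, between 1.06 and 1.22, in S217879 livers, and 1.48 ± 0.09, between 1.34 and 1.64, in vehicle livers (SD, n = 10 each). The groups did not overlap, and the log2 ratio differed by -0.39 (SE 0.03, permutation test, adjusted p = 6e-05 over 36 pairs). Col6a3 ranked 175 and Col15a1 ranked 689 from the lowest log2 difference among 13401 tested genes. Nearly any gene is thus higher relative to Col6a3, and the share over all genes was not computed. The difference in ratio is therefore given as a description. Because the pair varies together, its promoter windows are shown, chr1:90843922-90844221 for Col6a3 on the minus strand and chr4:47207762-47208061 for Col15a1 on the plus strand (RefSeq, GRCm38.p6), with capitals as above.
Col6a3: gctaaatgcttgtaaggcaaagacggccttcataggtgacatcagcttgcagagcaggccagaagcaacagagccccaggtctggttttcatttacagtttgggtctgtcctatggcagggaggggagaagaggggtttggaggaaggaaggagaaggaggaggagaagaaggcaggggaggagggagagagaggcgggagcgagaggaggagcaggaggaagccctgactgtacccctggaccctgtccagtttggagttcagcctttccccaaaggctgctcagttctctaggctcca
Col15a1: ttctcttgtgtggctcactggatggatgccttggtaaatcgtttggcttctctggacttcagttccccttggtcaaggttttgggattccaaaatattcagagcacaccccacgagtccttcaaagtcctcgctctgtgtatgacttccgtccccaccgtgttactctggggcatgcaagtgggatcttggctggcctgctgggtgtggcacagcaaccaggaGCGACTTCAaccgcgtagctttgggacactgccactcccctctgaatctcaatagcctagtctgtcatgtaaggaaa
The Col6a3 window held none of the 4 motifs and the Col15a1 window held 1 antioxidant core.

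**Figure D2:**
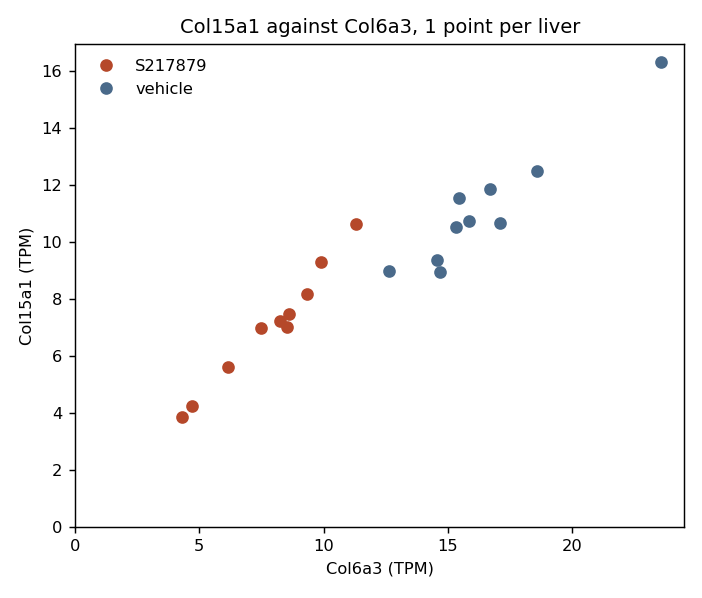
Col15a1 TPM against Col6a3 TPM, 1 point per liver, for 10 S217879 livers and 10 vehicle livers. Both groups rise along a line, and at a given Col15a1 level S217879 livers hold less Col6a3, with a mean ratio of 1.12 in S217879 livers and 1.48 in vehicle livers.

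The chains that decorate other fibrils split. Col16a1, a minor chain here, ranged over 2.22, 2.57 and 3.34 TPM (lowest, median, highest) in S217879 livers and over 2.72, 4.13 and 5.06 TPM in vehicle livers, with 6 S217879 livers below the lowest vehicle liver. Its log2 difference was -0.51 (SE 0.10, limma adjusted p = 0.000195), and it passed in 33 of 33 alternative settings. The gene lies at chr4:130047840-130099283 and Col14a1 at chr15:55307750-55520803, both on the plus strand. Col14a1, which binds the surface of type I fibrils, ranged over 29.1, 34.7 and 40.0 TPM in S217879 livers and over 26.8, 46.5 and 54.7 TPM in vehicle livers. No S217879 liver lay below the lowest vehicle liver. The log2 difference of -0.29 did not pass the threshold (SE 0.12, limma adjusted p = 0.0711).

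Col14a1 was the only member not called, and 7 of 34 alternative settings called it lower, while 27 did not. With quantile normalization its limma adjusted p was 0.00882 at a log2 difference of -0.26. In that setting 25.0% of all tested genes were lower and 26.4% higher. Without vehicle replicate 6 its limma adjusted p was 0.00432, without vehicle replicate 7 it was 0.0245, and without both it was 0.000169 at a log2 difference of -0.42, a setting in which 54.4% of all genes were lower. The Col14a1/Col16a1 ratio was 13.3 ± 1.91 in S217879 livers and 10.8 ± 1.34 in vehicle livers (SD, n = 10 each). The log2 ratio differed by 0.23 (95% interval 0.06 to 0.39, permutation test, adjusted p = 0.0427), in this direction in 10 of 10 S217879 livers. That call was lost without S217879 replicate 1, 2, 5, 7 or 10 or vehicle replicate 3, 5, 6 or 7, at an adjusted p by permutation of 0.0502 to 0.0751, and without vehicle replicates 6 and 7 together, at 0.107.

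**Figure D3:**
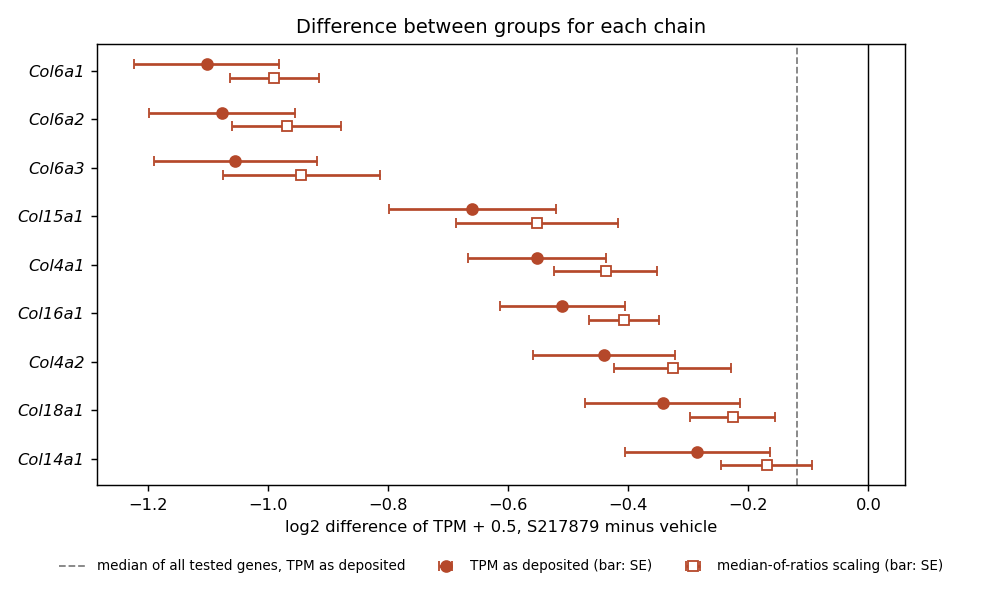
Log2 difference, S217879 minus vehicle, of each chain with its standard error, on TPM as deposited (filled) and after median-of-ratios scaling (open), with a dashed line at -0.12, the median of all tested genes as deposited. As deposited, Col6a1 lies lowest at -1.10 and Col14a1 lies nearest to the median at -0.29.

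Ratios between the members are given as a description, because the type VI chains were already the lowest of them. Col6a1, Col6a2 and Col6a3 ranked 150, 161 and 175 from the lowest log2 difference among 13401 tested genes. Nearly any gene therefore had a higher log2 difference than a type VI chain. The share of all genes whose ratio to such a chain differed was not computed. Of the 36 pairs of members, a set chosen after the data were seen, 21 differed in ratio at an adjusted p under 0.05 by permutation test. These were 18 of 18 pairs of a type VI chain with another member, 0 of 3 pairs within type VI and 3 of 15 pairs without type VI. For example, Col4a1/Col6a1 was 1.89 ± 0.18 in S217879 livers and 1.27 ± 0.13 in vehicle livers (SD, n = 10 each), a log2 difference of 0.55 (permutation test, adjusted p = 6e-05).

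Col1a1, the main chain of scar fibrils, served as a common denominator within each library. It was at 23.9 ± 6.53 TPM in S217879 livers and 58.4 ± 11.5 TPM in vehicle livers (SD, n = 10 each), a log2 difference of -1.31 (limma adjusted p = 9.75e-09). Since Col1a1 itself was so much lower, almost any gene is higher relative to it: by the same permutation test, 97.3% of the 13400 other tested genes were, with a median log2 ratio difference of 1.19. Of the 9 members 6 were, each in 10 of 10 S217879 livers, so a higher ratio is no result about a member, and the sizes are given as a description. The log2 ratio differed by 0.65 for Col15a1 (95% interval 0.39 to 0.91), 0.76 for Col4a1, 0.80 for Col16a1, 0.87 for Col4a2, 0.97 for Col18a1 and 1.02 for Col14a1 (95% interval 0.63 to 1.42). All 6 lie below the median of all genes. For the type VI chains the threshold was missed, at 0.20 for Col6a1 (95% interval -0.06 to 0.47), 0.23 for Col6a2 (-0.03 to 0.49) and 0.25 for Col6a3 (-0.01 to 0.51). Col6a2 passed without S217879 replicate 7 or 8 (permutation adjusted p of 0.0475 and 0.0485), and Col6a3 passed without S217879 replicate 5, 7 or 8 or vehicle replicate 8 (permutation adjusted p of 0.0187 to 0.0485).

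**Figure D4:**
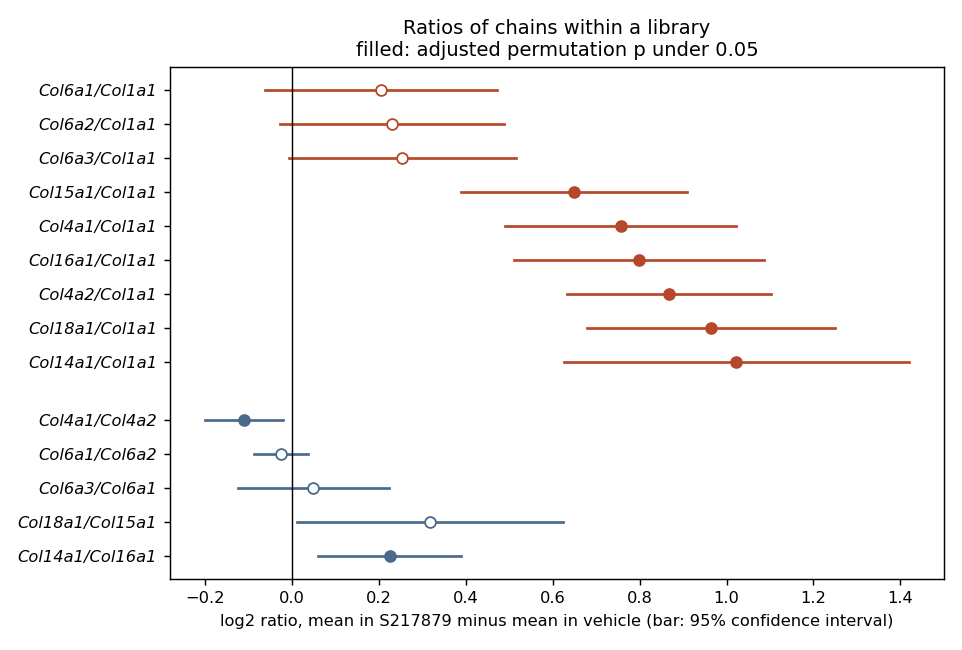
Difference of mean log2 ratio, S217879 minus vehicle, with its 95% interval, for 5 ratios of partner chains and 9 ratios to Col1a1, filled where the adjusted permutation p is under 0.05. The ratios of type VI chains to Col1a1 have intervals that reach below 0.

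On TPM as deposited, the same livers tended to be extreme for many chains. S217879 replicate 9 was the highest of its group for 5 of the 9 members and S217879 replicate 3 the lowest for 6. Among vehicle livers, replicate 5 was the highest for 7 members and replicate 7 the lowest for 6. Vehicle replicate 7 is also a library rich in rRNA-type genes, whose part in these levels was not tested. The scale of a library moves all its genes together. Its median-of-ratios factor was 1.07 for S217879 replicate 9, 0.875 for S217879 replicate 3, 1.17 for vehicle replicate 5 and 0.784 for vehicle replicate 7. Extremes were not counted after scaling or over all genes, so they are not shown to be particular to these chains.

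The genes most like each member, by r over 20 livers centred within groups after median-of-ratios scaling, are given as a description. For Col4a1 they were Col4a2 (0.91), the endothelial receptor gene Cd93 (0.90) and the fibrillar chain gene Col5a2 (0.90). For Col4a2 they were Col3a1 (0.92), Col4a1 (0.91) and Plxnd1 (0.90). For Col6a1 they were Col6a2 (0.96), Adamts2 (0.93), which codes for a procollagen protease, and P3h3 (0.90). Among the 13400 other tested genes, Col6a1 ranked only 35 in likeness to Col6a3 (0.85). For Col14a1 they were Adgrf5 (0.87), Postn (0.84) and Jcad (0.83). Col18a1 stood apart from the other chains, with Tmem94 (0.94), Pias4 (0.94) and R3hdm2 (0.92) closest to it.

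**Figure D5:**
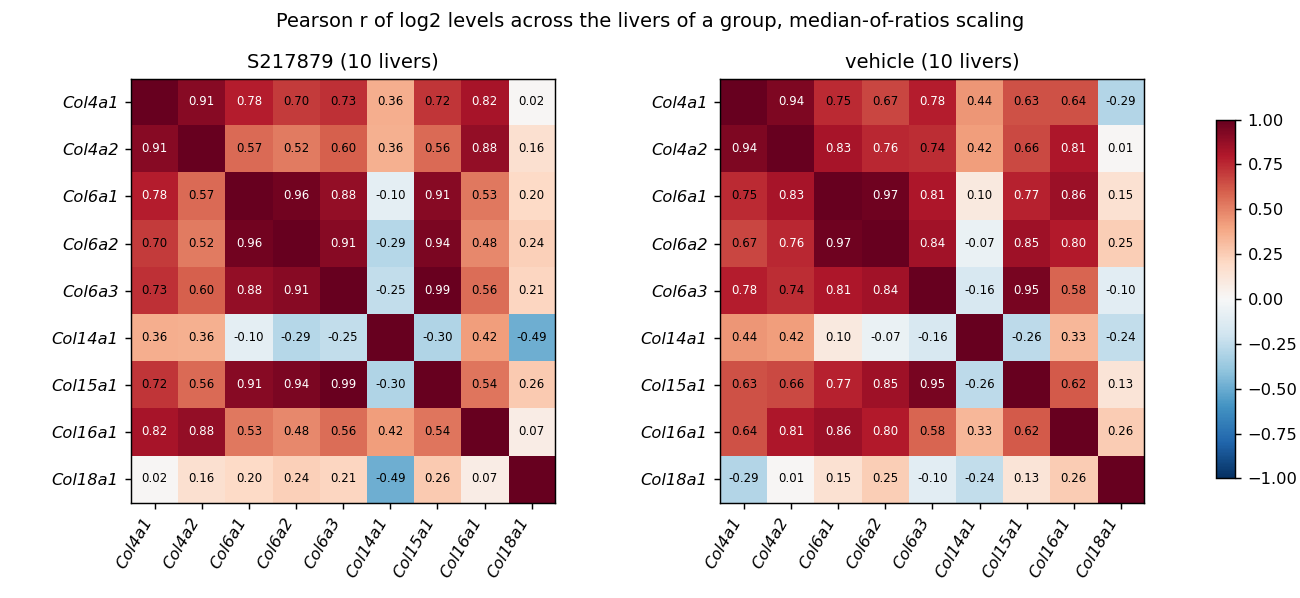
Correlation of the 9 members with each other over livers, on log2 TPM after median-of-ratios scaling, for S217879 livers and vehicle livers. The type IV pair and the Col6a3 and Col15a1 pair are strongly related in both groups, with r of 0.91 and 0.99 in S217879 livers and 0.94 and 0.95 in vehicle livers, while Col18a1 is weakly related to the other chains.

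Of 23 genes for other basement membrane parts, 19 were tested, and 11 were lower and 1 higher by limma, with a median log2 difference of -0.33. After median-of-ratios scaling 11 were lower and 2 higher. Among all tested genes 23.5% were lower and 6.07% higher as deposited, with a median log2 difference of -0.12. After that scaling the shares of all genes were 27.1% lower and 26.6% higher. Nid1, a nidogen that links laminin to type IV collagen, was at 15.99 ± 3.03 TPM in S217879 livers and 28.4 ± 5.70 TPM in vehicle livers (limma adjusted p = 1.28e-06). Lamc3, a laminin chain, was at 2.42 ± 1.13 TPM in S217879 livers and 5.21 ± 1.53 TPM in vehicle livers. Tinag, a tubular basement membrane antigen, was higher, at 3.43 ± 0.72 TPM in S217879 livers and 1.27 ± 0.38 TPM in vehicle livers (limma adjusted p = 4.32e-10).

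Other collagen genes were read in the same fit, where 23.5% of all tested genes were lower and 6.07% higher. After median-of-ratios scaling those shares were 27.1% and 26.6%. Of 24 other non-fibrillar chains only 2 passed the filter on low values, and Col4a5 was lower, at 0.98 ± 0.39 TPM in S217879 livers and 1.80 ± 0.47 TPM in vehicle livers. Col4a5 passed the filter of 1 TPM only through the vehicle livers, so its call is given as a description. Of 11 fibrillar chains 7 were tested, with 6 lower, 0 higher and a median log2 difference of -0.77. After median-of-ratios scaling 6 fibrillar chains were lower and 1 higher. Of 22 enzymes and chaperones of collagen assembly 20 were tested, with 10 lower and 0 higher on TPM as deposited, and 12 lower and 3 higher after median-of-ratios scaling. Among these, Serpinh1, the collagen chaperone, was at 27.1 ± 4.85 TPM in S217879 livers and 42.1 ± 8.44 TPM in vehicle livers (limma adjusted p = 0.000136). Of 18 listed symbols for collagen and laminin receptors, 17 were among the deposited genes and 11 were tested. Of these 11, 8 were lower and 0 higher on TPM as deposited. After median-of-ratios scaling 10 were tested, with 6 lower and 0 higher. Mrc2, a collagen uptake receptor, had the lowest log2 difference of the list as deposited, at -0.88. Among the genes counted as lower, 1 enzyme and 1 receptor also passed the filter only through the vehicle livers. Plod2 averaged 0.89 TPM in S217879 livers and 1.40 TPM in vehicle livers, and Itgb4 averaged 0.77 and 1.25 TPM.

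Markers of several liver cell types also differed between the groups. Of 10 stellate cell and fibroblast markers 9 were lower and 0 higher, and their summed level was 235 to 451 TPM (median 287) in S217879 livers and 250 to 467 TPM (median 415) in vehicle livers. Of 9 portal fibroblast markers 7 were tested and 6 were lower, with sums of 12.04 to 26.1 TPM in S217879 livers and 20.8 to 40.8 TPM in vehicle livers. Of 11 endothelial markers 5 were higher and 1 lower as deposited, and 9 higher and 1 lower after median-of-ratios scaling, with sums of 213 to 281 TPM in S217879 livers and 126 to 262 TPM in vehicle livers. Of 8 macrophage markers 5 were lower and 0 higher. Of 8 cholangiocyte markers 6 were tested and 3 were lower, or 2 after median-of-ratios scaling. The counts for stellate cell, portal fibroblast and macrophage markers were the same under both scalings. Of 8 hepatocyte markers 2 were higher and 1 lower as deposited, and 3 higher and 1 lower after median-of-ratios scaling. Of 6 smooth muscle markers 3 were tested and 2 were lower, or 1 after median-of-ratios scaling. Of 6 adipocyte markers 3 were tested, with 1 higher and 1 lower as deposited, and 1 higher and 0 lower after that scaling. Of 6 mesothelial markers 3 were tested and 0 were called by limma, 0 of them at an unadjusted p under 0.05. Median-of-ratios scaling called 1 mesothelial marker higher. Among all tested genes 23.5% were lower and 6.07% higher as deposited, and 27.1% and 26.6% after that scaling. No listed marker was at 0 in every library. The part of these cell types in the members' differences was not tested.

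Scaling shifts all genes together. With median-of-ratios scaling the median log2 difference of all tested genes was -0.01, against -0.12 on TPM as deposited. Under that scaling the members had log2 differences of -0.99 for Col6a1, -0.44 for Col4a1, -0.33 for Col4a2, -0.23 for Col18a1 and -0.17 for Col14a1, which was not called. Relative to the median of all genes on the deposited scale, the differences ran from -0.99 for Col6a1 to -0.17 for Col14a1.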

How the data were processed

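Liver RNA was sequenced by the submitters from polyA-selected stranded libraries, per the labels' protocols. Reads were handled with Trimmomatic 0.36, STAR 2.5.2b and featureCounts (Subread 1.5.2) on GRCm38, per the submitters' processing notes; settings, annotation and use of strand are not stated there. The authors deposited 1 signal table of gene-level TPM, scaled by gene length and library, so depth and counting error are unknown. Groups came from the treatment label. All 20 columns were mapped, 0 columns matched no sample, and 0 pairs of libraries were identical. The reference tables gave a symbol to 48970 of 49315 genes.

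The 13401 genes whose mean reached 1 TPM were tested with limma 3.58.1 in R 4.3.3 on log2(TPM + 0.5), with trended, robust variance and Benjamini-Hochberg adjustment, at 0.05. Fold changes are on that scale and understate those of low genes. Ratios and relations used two-sided permutation tests with 100000 resamples (numpy 2.4.6), whose smallest p is 1e-05, and intervals of ratio differences are 95% intervals that allow unequal variances. On simulated data, calls recovered 58.2% of 67 genes shifted by a log2 of 0.5, 97% of 67 shifted by 1 and 100% of 66 shifted by 2, with 13 of 13201 unchanged genes called. The simulated noise was independent between genes, without the shifts that all genes of a library share here. These rates need not hold for the real libraries. Named genes were all members, Col1a1, up to 2 of the highest and 2 of the lowest log2 differences among called genes of each list, and the 3 genes most like each member. Not every gene so chosen is described, and like genes are given for Col4a1, Col4a2, Col6a1, Col14a1 and Col18a1. The members and lists were chosen with earlier results of these data known. Alternatives covered pseudocount, filter, scaling, variance model, rank test and left-out libraries, and the 36 pairs of members and the ratio of every gene to Col1a1 were added after seeing the data.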

Additional observations from a re-analysis of the deposited data

Results flagged for a closer look

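In 46 groups of 10 livers, the gap of the extreme liver to its nearest neighbour, as a share of the group's range, was set against Dixon's 95% critical value, and 4 were past it. Chance gives about 1 in 20 groups. Col15a1 in vehicle replicate 5 was 16.3 TPM, above the other vehicle livers. The other 3 were all in S217879 replicate 3, high for its group in each: a Col6a1/Col6a2 ratio of 2.75, a Col14a1/Col16a1 ratio of 18.01 and a Col14a1/Col1a1 ratio of 3.66. The Col14a1 ratios share that gene, and Col6a1/Col6a2 shares none with them.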

How the results depend on the processing

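All 305 alternative values of single members were below 0. They come from refits of the same 20 livers and are not independent of each other. Over these settings the median log2 difference of all tested genes ran from -0.26 without the rRNA-type genes to 0.005 with quantile normalization. The share of all genes with every value below 0 was not computed. The number of members lower stayed between 7 and 9 when 1 library was left out. Basement membrane partners lower, 11 in the reported fit, were 7 with a mean of at least 5 TPM and 17 without the 20 highest or the 4 rRNA-type genes, settings in which 52.8% and 63.1% of all tested genes were lower, against 23.5% as reported. Other non-fibrillar chains lower, 1 as reported, were 6 with a mean of at least 0.1 TPM or no filter, 0 with at least 5, 2 without mitochondrial genes, 3 without the 20 highest genes, 4 without the rRNA-type genes, and 1 to 2 with 1 library left out. Processing genes lower, 10 as reported, were 5 and 16 with at least 5 TPM and without rRNA-type genes, and receptors lower, 8 as reported, were 5 with at least 5 TPM. The Col4a1/Col4a2 log2 ratio difference was -0.11 with a pseudocount of 0.1 (permutation adjusted p = 0.0502), -0.11 without vehicle replicates 6 and 7 (adjusted p by permutation 0.107) and -0.1293 to -0.0929 with 1 library left out. The Col6a1/Col6a2 difference turned to 0.0085 with a pseudocount of 0.1 and 0.018 with none. Col18a1/Col15a1 was 0.36 with no pseudocount and 0.24 to 0.36 with 1 library left out, and Col14a1/Col16a1 was 0.19 without vehicle replicates 6 and 7 and 0.18 to 0.26 with 1 left out. Col6a2/Col1a1 ran from 0.16 to 0.27 and Col6a3/Col1a1 from 0.19 to 0.31 with 1 left out, and Col6a1 with Col6a3 in vehicle livers had r = 0.0137 without the 2 farthest livers. The cause of these changes was not tested. No paired analysis was possible because each library carries its own animal number and no number is shared between groups. Depth is unknown. The p-values of group differences set each difference against the variation between these livers, which includes variation between their libraries.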
